A study of Homo sapiens with 24 samples.

Results

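Genes of glutathione synthesis and use were followed in ARPE-19 cells, an established human line of retinal pigment epithelium, after siRNA against PINK1, against Nrf2 or against both. The 9 genes were chosen by name, with earlier results of these data known: SLC7A11, GCLC, GCLM, GSS, GGCT, GSR, GPX1, GSTP1 and MGST1. All 9 were found among the 24053 gene identifiers of the deposited table, and all 9 passed the minimum of a mean of 1 TPM (the deposited unit, a level corrected for transcript length and scaled to a fixed total per sample) that left 13810 genes for testing. The cells had received Pink1 siRNA, Nrf2 siRNA, both siRNAs (double siRNA) or a scramble siRNA. Each of the 4 groups had 3 biological replicates, and each replicate was sequenced as 2 technical replicates, which were averaged here to give 12 samples. The group labels call the siRNA groups knockouts, but the design text describes siRNA, so a partial loss of each transcript is what was tested. Scratch wounding also appears in the protocols, and the sources used here do not say whether the sequenced cells were wounded.

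Glutathione is a tripeptide thiol that cells use to reduce peroxides and to conjugate electrophiles, and the retinal pigment epithelium depends on it because light, oxygen and phagocytosed photoreceptor lipids expose it to oxidants. Cystine enters through the SLC7A11 exchanger, glutamate-cysteine ligase (a catalytic subunit, GCLC, and a modifier subunit, GCLM) makes the dipeptide, and GSS adds glycine. Nrf2, encoded by NFE2L2, is a transcription factor that binds antioxidant response elements near many of these genes, and PINK1 is a kinase that marks damaged mitochondria for removal.

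Both siRNA targets were lower where they were targeted. NFE2L2 averaged 20.0 ± 7.72 TPM with Nrf2 siRNA and 28.9 ± 6.16 TPM with double siRNA, against 80.6 ± 7.69 TPM with scramble (SD, n = 3 each; limma, Benjamini-Hochberg adjusted p = 0.00523 and 0.0212). PINK1 averaged 14.6 ± 3.22 TPM with Pink1 siRNA and 18.7 ± 2.93 TPM with double siRNA, against 55.8 ± 1.93 TPM with scramble (SD, n = 3 each; limma adjusted p = 0.000560 and 0.00301). In bulk RNA, a lower level in each cell and fewer expressing cells cannot be told apart. The identity of the cells was checked against 14 markers of retinal pigment epithelium, of which 13 were in the table, with a summed level of 1556 to 2199.9 TPM in Pink1 siRNA samples, 1352 to 1648 TPM in Nrf2 siRNA samples, 1720.1 to 2019 TPM in double siRNA samples and 1734 to 1972 TPM in scramble samples. KRT8 (728 to 1084 TPM), KRT18 (465 to 866 TPM), MITF and OTX2 made up most of that sum, while RPE65 and RGR, which mark mature visual cycle function, reached at most 0.360 and 0.600 TPM. RLBP1, LRAT, TYR and SERPINF1 reached at most 3.69, 1.89, 4.82 and 3.85 TPM, and TTR was not found. BEST1, PMEL and TYRP1 reached at most 9.47, 7.14 and 53.0 TPM. The sum rests on few of the markers and does not by itself establish the identity of the cells. A single identifier, ENSG00000226958, took 15.5 to 41.4% of all TPM in a sample, and since TPM sums to a fixed total, every other gene's TPM depends on that share. A list of 12 interferon-stimulated genes summed to 252 to 516 TPM with Pink1 siRNA, 2116 to 5507 TPM with Nrf2 siRNA, 512 to 1432 TPM with double siRNA and 381 to 1795 TPM with scramble.

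A short motif of antioxidant response elements was looked for because Nrf2 is one of the siRNA targets. RefSeq promoter windows (GRCh38.p14, 250 bases before to 50 after a start) were at hand for 5 of the 9 genes, and they were searched on both strands for TGACNNNGC. Matches were found in 3 of 7 windows of these genes, against 13.3% of all 35116 windows. The matches of GCLM, GSTP1 and MGST1 are printed below in the sense of the gene with 10 bases on either side, and the capitals mark the motif, which in GCLM lies on the opposite strand.
GCLM (chr1:93909446-93909474, minus strand): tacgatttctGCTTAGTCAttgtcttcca
GSTP1 (chr11:67583736-67583764, plus strand): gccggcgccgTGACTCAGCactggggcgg
MGST1 (chr12:16347135-16347163, plus strand): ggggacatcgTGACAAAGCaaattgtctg
The motif began at position -34 in GCLM, at -66 in GSTP1 and at 31 in 1 of the 3 start windows of MGST1, counted from the annotated start. The windows of GCLC and GPX1 held no such letters, and no window was at hand for GSS, GSR, SLC7A11 and GGCT. A match is a description of the sequence only; binding was not measured.

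Levels per transcript length spanned from GSTP1, the pi-class glutathione transferase, to SLC7A11. Averaged over the 12 samples, GSTP1 stood at 986 TPM, GPX1 at 224 TPM and MGST1 at 148 TPM, ranks 98, 406 and 662 of the 13810 genes. The synthesis and recycling genes were lower, with GSS at 29.2 TPM, GGCT at 24.3 TPM, GSR at 15.9 TPM, GCLC at 14.3 TPM, GCLM at 9.69 TPM and SLC7A11 at 8.94 TPM. GSTP1 was above GPX1, MGST1 above GSS, and GGCT above GSR in 12 of 12 samples. The other neighbours changed places in some samples: GPX1 was above MGST1 in 10 of 12, GSS above GGCT in 9, GSR above GCLC in 9, GCLC above GCLM in 11 and GCLM above SLC7A11 in 8. How closely the technical pairs matched depended on the gene, with a technical SD on the log2(TPM + 1) scale of 0.0262 for GSTP1 and 0.0781 for GSR but 0.300 for GCLC and 0.387 for GCLM. For GCLC the technical SD was above the SD between biological replicates, 0.251. The first is the SD of a single technical replicate and the second was taken from averaged pairs, so they are not like for like. How much of the spread of GCLC between samples was technical was not tested.

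**Figure D1:**
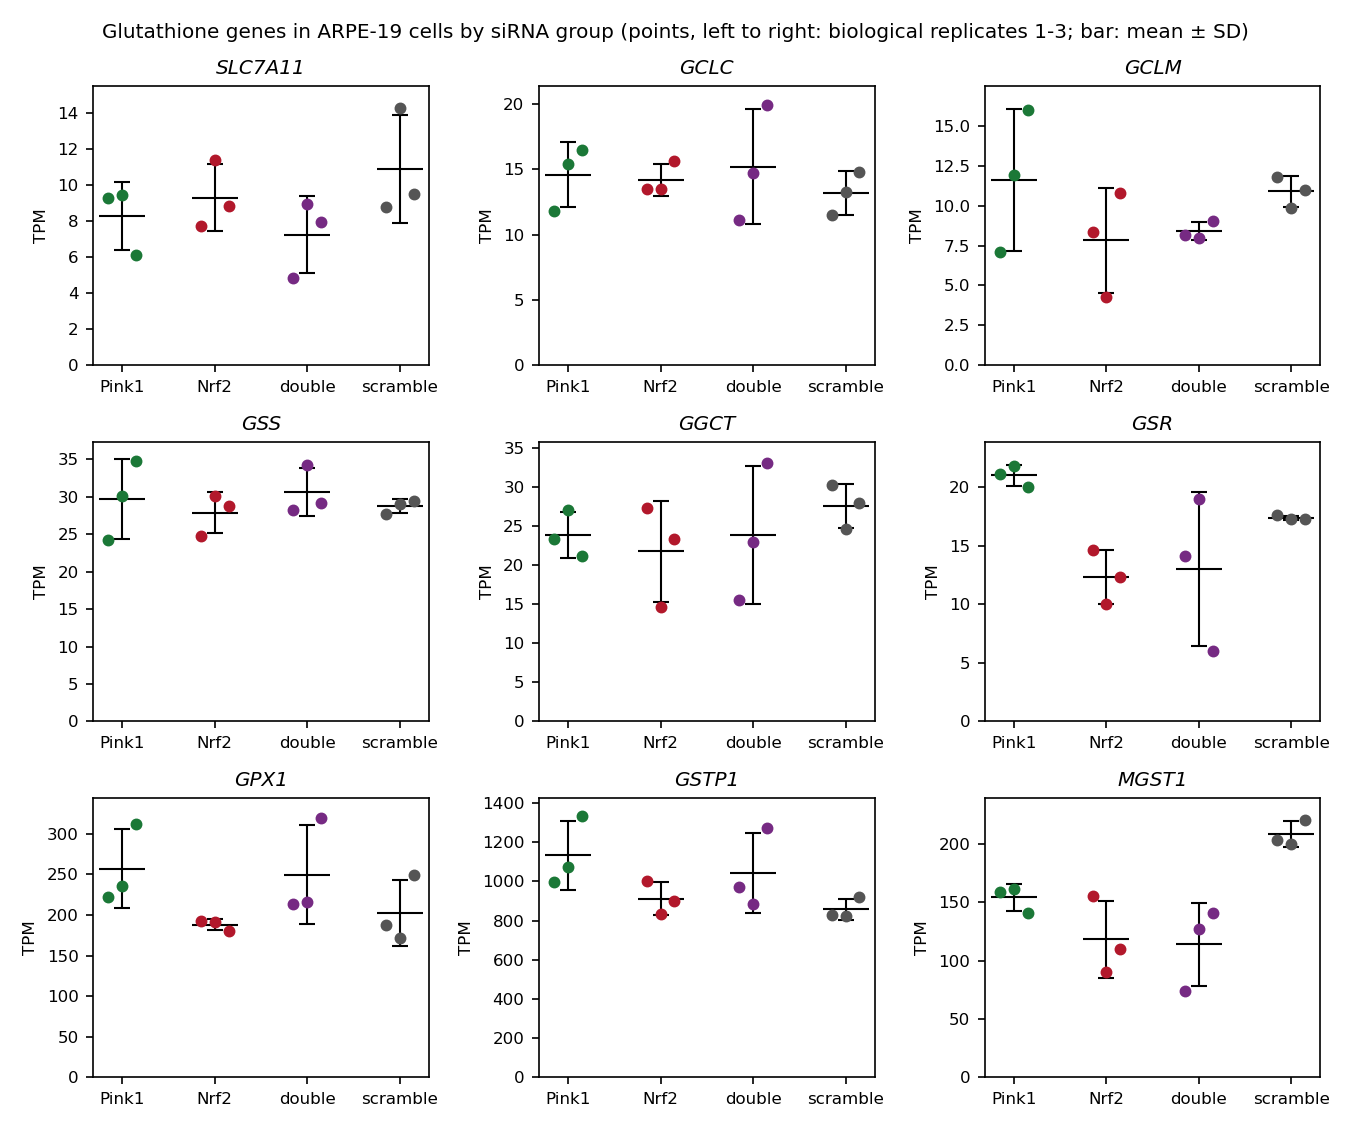
TPM of each of the 9 glutathione genes (y axis, linear from 0) in the Pink1, Nrf2, double and scramble siRNA groups (x axis). Points are biological replicates 1 to 3 from left to right, and bars are mean ± SD; the 3 scramble points of MGST1 lie above all 9 points of the siRNA groups, while the points of most other genes overlap between groups.

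SLC7A11, the cystine and glutamate exchanger that brings in the limiting precursor, was the least abundant of the 9. It had 9.29, 9.44 and 6.13 TPM with Pink1 siRNA, 7.74, 11.4 and 8.83 TPM with Nrf2 siRNA, 4.84, 8.96 and 7.95 TPM with double siRNA, and 8.82, 14.3 and 9.50 TPM with scramble. The groups overlapped, and scramble replicate 2 stood above every other sample. The fitted difference of double siRNA from scramble was -0.53 on the log2(TPM + 1) scale (95% interval -1.07 to 0.00; limma adjusted p = 0.351), and that of Nrf2 siRNA from scramble was -0.19 (-0.72 to 0.34; adjusted p = 0.819). The difference of Pink1 siRNA from scramble was -0.35 (-0.88 to 0.19; adjusted p = 0.606). None of these passed. They rested in part on scramble replicate 2, without which they were -0.34 for double siRNA, 0.01 for Nrf2 siRNA and -0.15 for Pink1 siRNA. Without double siRNA replicate 1 the difference of double siRNA was -0.30, and without Pink1 siRNA replicate 3 that of Pink1 siRNA was -0.17.

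GCLC, the catalytic subunit of the ligase that limits synthesis, had 11.8, 15.4 and 16.5 TPM with Pink1 siRNA, 13.5, 13.5 and 15.6 TPM with Nrf2 siRNA, 11.1, 14.7 and 19.9 TPM with double siRNA, and 11.5, 13.3 and 14.8 TPM with scramble. All 4 groups overlapped, and the highest and the lowest of the 12 samples both belonged to the double siRNA group; with ENSG00000226958 removed the lowest was scramble replicate 1. The fitted difference of Nrf2 siRNA from scramble was 0.10 (95% interval -0.33 to 0.53; limma adjusted p = 0.888). Those of Pink1 siRNA and double siRNA were 0.13 (-0.30 to 0.56; adjusted p = 0.834) and 0.17 (-0.26 to 0.60; adjusted p = 0.765). All 3 intervals ended short of a 2-fold change of GCLC in either direction on this scale.

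GCLM, the subunit that raises the ligase's efficiency, had 7.08, 11.9 and 16.0 TPM with Pink1 siRNA, 8.32, 4.29 and 10.8 TPM with Nrf2 siRNA, 8.18, 7.95 and 9.04 TPM with double siRNA, and 11.8, 9.86 and 11.0 TPM with scramble. The 3 double siRNA samples were all below the 3 scramble samples, but the technical replicates of double siRNA replicate 1 were 4.79 and 11.6 TPM, of which the higher lies within the scramble range. The Nrf2 siRNA group was low mainly through replicate 2, and its replicate 3 rested on technical values of 14.8 and 6.88 TPM. The fitted difference was -0.50 for Nrf2 siRNA against scramble (95% interval -1.13 to 0.12; limma adjusted p = 0.539) and -0.34 for double siRNA against scramble (-0.96 to 0.29; adjusted p = 0.648). Without Nrf2 siRNA replicate 2 that of Nrf2 siRNA was -0.17, and without its replicate 3 it was -0.76. From technical replicates 1 and 2 alone, that of double siRNA was -0.61 and -0.12. Over both groups with Nrf2 siRNA against both groups without it, called the Nrf2 siRNA main effect below, GCLM averaged 8.10 against 11.3 TPM, a difference of -0.44 (-0.88 to 0.01; adjusted p = 0.442).

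The ratio of GCLM to GCLC in the same sample describes how much modifier transcript accompanied the catalytic one. It was 0.599, 0.769 and 0.968 with Pink1 siRNA, 0.619, 0.317 and 0.694 with Nrf2 siRNA, 0.734, 0.540 and 0.455 with double siRNA, and 1.03, 0.742 and 0.744 with scramble. All 6 samples with Nrf2 siRNA were below all 3 scramble samples, by little in double siRNA replicate 1, whereas the Pink1 siRNA samples overlapped with both. The means were 0.779 ± 0.184 with Pink1 siRNA, 0.543 ± 0.200 with Nrf2 siRNA, 0.576 ± 0.143 with double siRNA and 0.838 ± 0.164 with scramble (SD, n = 3 each), with no test. The separation was absent in either technical replicate alone: in technical replicate 1 Nrf2 siRNA reached 0.797 and the lowest scramble sample was 0.666, and in technical replicate 2 double siRNA reached 0.971 and the lowest scramble sample was 0.541. Scramble replicate 1 gave 0.666 and 1.72 in its technical replicates, so the ratio of a single sample was not precise.

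GSS, which adds glycine to complete glutathione, had 24.2, 30.1 and 34.8 TPM with Pink1 siRNA, 24.8, 30.1 and 28.8 TPM with Nrf2 siRNA, 28.3, 34.3 and 29.2 TPM with double siRNA, and 27.7, 29.1 and 29.5 TPM with scramble. With TPM as deposited it varied least between biological replicates of the 9 genes, with an SD of 0.164 on the log2 scale. The Nrf2 siRNA main effect on GSS was 0.00 (95% interval -0.23 to 0.24; limma adjusted p = 0.997), the narrowest bound of the 9 genes in that comparison. With ENSG00000226958 removed, GSTP1 varied less than GSS in every group, with an SD of 3.55 to 14.0% of the mean beside 3.87 to 18.2%.

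GGCT, a cyclotransferase that acts on gamma-glutamyl dipeptides in glutathione turnover, had 23.4, 27.1 and 21.2 TPM with Pink1 siRNA, 27.4, 14.7 and 23.4 TPM with Nrf2 siRNA, 15.6, 23.0 and 33.2 TPM with double siRNA, and 30.3, 24.7 and 28.0 TPM with scramble. The siRNA groups spread more widely than scramble, from 14.7 TPM in Nrf2 siRNA replicate 2 to 33.2 TPM in double siRNA replicate 3. The fitted differences from scramble were -0.20 for Pink1 siRNA (95% interval -0.76 to 0.35; limma adjusted p = 0.792), -0.36 for Nrf2 siRNA (-0.92 to 0.19; adjusted p = 0.628) and -0.26 for double siRNA (-0.81 to 0.30; adjusted p = 0.708). Without Nrf2 siRNA replicate 2 the Nrf2 siRNA difference was -0.12, and without its replicate 1 it was -0.54.

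GSR, the reductase that returns oxidised glutathione to its thiol form with NADPH, had 21.1, 21.8 and 20.0 TPM with Pink1 siRNA, 14.6, 9.98 and 12.3 TPM with Nrf2 siRNA, 14.1, 19.0 and 5.99 TPM with double siRNA, and 17.6, 17.3 and 17.3 TPM with scramble. The 3 Pink1 siRNA samples were above and the 3 Nrf2 siRNA samples below all scramble samples, and the double siRNA group reached from above scramble to the lowest value of the 12 samples. The technical replicates of that lowest sample, double siRNA replicate 3, were 5.89 and 6.08 TPM. The Nrf2 siRNA main effect on GSR, 12.6 against 19.2 TPM, was -0.63 ± 0.20 (SE; 95% interval -1.07 to -0.19; unadjusted p = 0.00886, limma adjusted p = 0.205), which did not pass. Against scramble the fitted difference was 0.25 for Pink1 siRNA (-0.37 to 0.88; adjusted p = 0.767), -0.48 for Nrf2 siRNA (-1.11 to 0.14; adjusted p = 0.549) and -0.52 for double siRNA (-1.15 to 0.10; adjusted p = 0.451). The difference of double siRNA depended on single samples, since without replicate 3 it was -0.08, and without replicate 2 it was -0.84. Against Pink1 siRNA, double siRNA gave -0.78 (-1.40 to -0.15; adjusted p = 0.692), and -0.34 without that replicate. With ENSG00000226958 removed, the Nrf2 siRNA samples stayed below all scramble samples. Pink1 siRNA replicate 3 (26.6 TPM) and double siRNA replicate 2 (26.8 TPM) then lay within the scramble range (25.6 to 27.2 TPM). On that scale Pink1 siRNA therefore overlapped with both scramble and double siRNA.

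GPX1, the cytosolic and mitochondrial selenoenzyme that reduces hydrogen peroxide with glutathione, had 222, 236 and 312 TPM with Pink1 siRNA, 192, 191 and 179.9 TPM with Nrf2 siRNA, 213, 216 and 319.8 TPM with double siRNA, and 188, 172 and 249 TPM with scramble. The double siRNA samples were all above the Nrf2 siRNA samples, and both groups overlapped with scramble. Over both groups with Pink1 siRNA against both without it, the Pink1 siRNA main effect, GPX1 averaged 253 against 195 TPM, a difference of 0.36 ± 0.14 (SE; 95% interval 0.06 to 0.66; unadjusted p = 0.0225, limma adjusted p = 0.275). It did not pass the adjustment over all genes. With ENSG00000226958 removed, GPX1 had 363, 306 and 379 TPM with double siRNA and 274, 310.4 and 266 TPM with Nrf2 siRNA. The 2 groups then overlapped.

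GSTP1, which conjugates glutathione to electrophiles, had 996, 1072 and 1331 TPM with Pink1 siRNA, 1000.0, 833 and 900.4 TPM with Nrf2 siRNA, 972, 883 and 1272 TPM with double siRNA, and 831, 822 and 919 TPM with scramble. The 3 Pink1 siRNA samples were above all scramble samples, and the other groups overlapped with scramble. The difference of Pink1 siRNA from scramble was 0.39 ± 0.17 (SE; 95% interval 0.03 to 0.76; unadjusted p = 0.0367, limma adjusted p = 0.367). The Pink1 siRNA main effect, 1088 against 884 TPM, was 0.29 (0.03 to 0.54; unadjusted p = 0.0321, adjusted p = 0.315). Pink1 siRNA replicate 3 and double siRNA replicate 3, the highest samples for both GSTP1 and GPX1, also had the lowest shares of ENSG00000226958, 24.9% and 15.5%. With that identifier removed and each sample rescaled to the same total, GSTP1 averaged 1633 ± 122 TPM with Pink1 siRNA, 1371 ± 50.1 with Nrf2 siRNA, 1471 ± 206 with double siRNA and 1307 ± 46.4 with scramble (SD, n = 3 each). The fitted difference of Pink1 siRNA from scramble was then 0.32 for GSTP1 and 0.27 for GPX1, and under quantile normalization that of GSTP1 was 0.22. Without Pink1 siRNA replicate 3 that of GPX1 was 0.19, beside 0.34 with all samples.

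MGST1, a membrane-bound microsomal transferase that also reduces lipid peroxides, had the largest fitted difference from scramble of the 9 genes. It had 159, 161 and 141 TPM with Pink1 siRNA, 155, 90.0 and 110.0 TPM with Nrf2 siRNA, 73.7, 127 and 141 TPM with double siRNA, and 203, 199.7 and 220.3 TPM with scramble. Every siRNA sample, 9 of 9, was below every scramble sample, and the group means were 154 ± 11.3, 118 ± 33.0, 114 ± 35.4 and 208 ± 11.1 TPM in that order of groups (SD, n = 3 each). The share of all genes with all 9 siRNA samples on 1 side of scramble was not computed. Pink1, Nrf2 and double siRNA taken singly did not overlap with the same scramble samples in 25%, 22.9% and 18% of all genes. The technical pairs of MGST1 were close, for example 69.6 and 77.8 TPM in double siRNA replicate 1, the lowest sample, and the technical SD was 0.116 on the log2 scale.

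Against scramble, MGST1 differed by -0.84 ± 0.23 with Nrf2 siRNA (SE; 95% interval -1.35 to -0.34, 0.558-fold; unadjusted p = 0.00331, limma adjusted p = 0.155). With double siRNA it differed by -0.91 ± 0.23 (-1.42 to -0.41, 0.531-fold; unadjusted p = 0.00187, adjusted p = 0.0991), and with Pink1 siRNA by -0.43 ± 0.23 (-0.94 to 0.07, 0.741-fold; adjusted p = 0.493). The Nrf2 siRNA main effect, 116 against 181 TPM, was -0.66 ± 0.17 (-1.02 to -0.30; unadjusted p = 0.00156, adjusted p = 0.0962). With TPM as deposited MGST1 therefore passed in no comparison. It passed in these 3 comparisons that involve Nrf2 siRNA under each of 3 other scalings, namely quantile normalization, removal of ENSG00000226958 and median-of-ratios rescaling. Calls over all genes also rose under some alternative settings, from 46, 104 and 101 to at most 167, 335 and 288 in the same order of comparisons. The share of all genes called under each single scaling is not given here. With ENSG00000226958 removed, MGST1 averaged 224 ± 32.2 TPM with Pink1 siRNA, 176 ± 38.9 with Nrf2 siRNA, 157 ± 28.3 with double siRNA and 317 ± 8.28 with scramble (SD, n = 3 each), and the limma adjusted p values were 0.0384 for Nrf2 siRNA against scramble, 0.0113 for double siRNA against scramble and 0.0142 for the Nrf2 siRNA main effect.

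**Figure D2:**
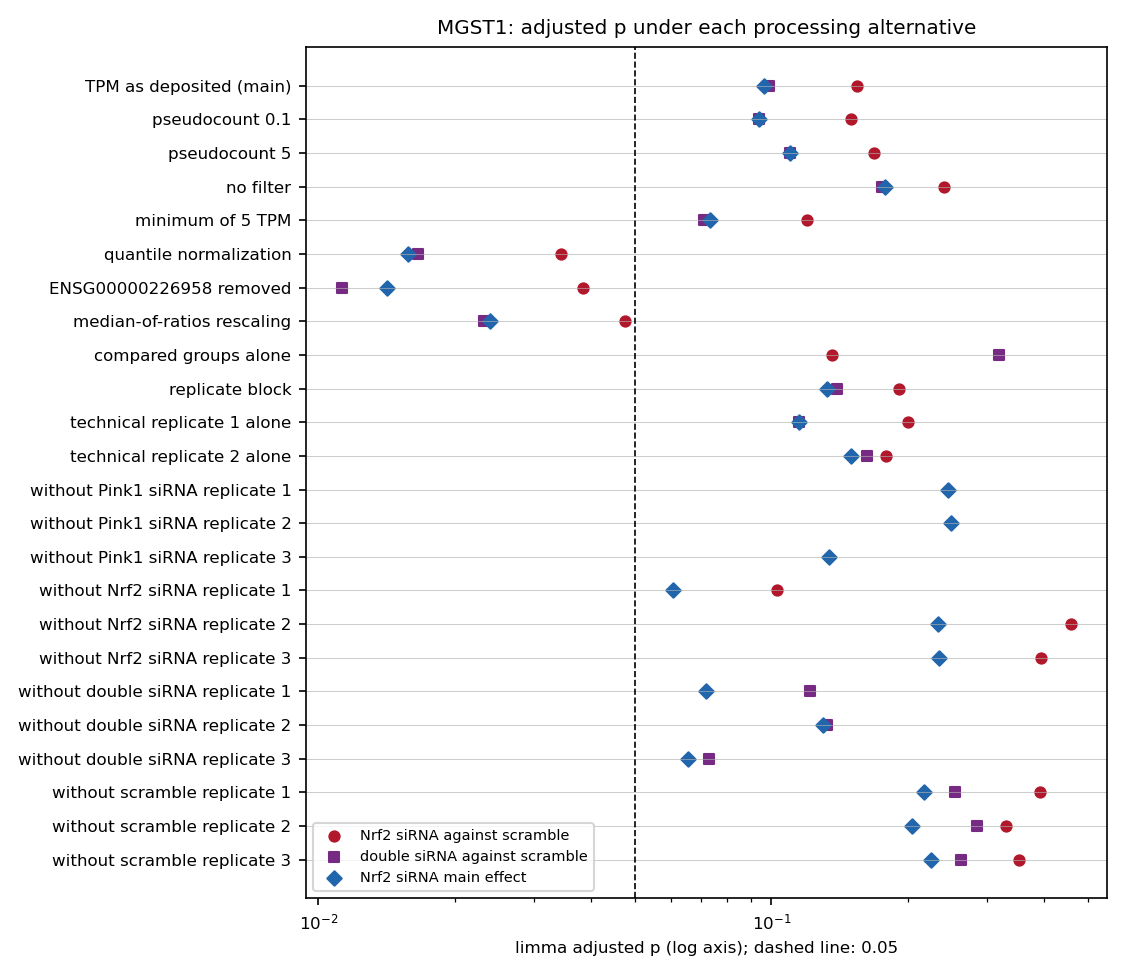
Adjusted p of MGST1 (x axis, log scale; dashed line at 0.05) under the processing used and each alternative (y axis) for Nrf2 siRNA against scramble, double siRNA against scramble and the Nrf2 siRNA main effect. Quantile normalization, removal of ENSG00000226958 and median-of-ratios rescaling place all 3 points left of the line, and every other setting leaves them right of it.

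The 5 genes whose log2(TPM + 1) followed MGST1 most closely over the 12 samples were DENND1B (Pearson r = 0.965), SH3BGRL (0.965), GJA1 (0.958), TMEM41B (0.954) and NDFIP2 (0.951). These are descriptions with no test, over samples that share their 4 groups and the scaling to a fixed total. GJA1, the gap junction protein connexin 43, averaged 77.8 TPM with Pink1 siRNA, 49.1 with Nrf2 siRNA, 54.5 with double siRNA and 147 with scramble, and SH3BGRL averaged 38.3, 28.6, 27.8 and 57.6 TPM in that order. Among the other 8 glutathione genes GGCT was nearest to MGST1 (r = 0.788, rank 391 of all genes), and GCLM (0.482), SLC7A11 (0.476) and GSR (0.388) followed. GSTP1, GPX1, GCLC and GSS lay between -0.147 and 0.0847.

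Read across the 9 genes, Nrf2 siRNA against scramble gave 0 limma calls, against 0.333% of all genes tested, and 1 gene (MGST1) at an unadjusted p under 0.05, against 12.2%. The groups did not overlap for 2 of 9 genes, GSR and MGST1, against 22.9% of all genes. Of the 9 fitted differences 7 were below 0, with a median of -0.19 against 0.02 over all genes, and 6 of the 9 intervals lay within a 2-fold change either way. Double siRNA against scramble likewise gave 0 calls, against 0.753%, and 1 gene (MGST1) at an unadjusted p under 0.05, against 14.2%. The groups did not overlap for GCLM and MGST1, 2 of 9 against 18% of all genes, and the median difference was -0.26 against 0.01. Both shares of separated genes are near the background.

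Pink1 siRNA against scramble gave 0 limma calls, against 0.471% of all genes, with 1 gene (GSTP1) at an unadjusted p under 0.05, against 12.2%. The groups did not overlap for GSR, GSTP1 and MGST1, 3 of 9 against 25% of all genes, and the median difference was 0.03 against 0.02. All 9 intervals lay within a 2-fold change either way. With ENSG00000226958 removed, GSR overlapped between Pink1 siRNA and scramble. These 3 comparisons share the same scramble samples, so their values are not independent of one another.

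Between the siRNA groups, double siRNA against Pink1 siRNA gave 0 limma calls, against 0.0434% of all genes, and 1 gene (GSR) at an unadjusted p under 0.05, against 5.8%. GSR and MGST1, 2 of 9 against 8.85% of all genes, did not overlap between these groups, and for MGST1 the difference was -0.48 (95% interval -0.99 to 0.03; adjusted p = 0.863). Here the MGST1 samples meet closely, since both groups hold a sample at 141 TPM when rounded. With ENSG00000226958 removed, GSR overlapped between double siRNA and Pink1 siRNA. Double siRNA against Nrf2 siRNA gave 0 calls, against 0.0145%, and 0 genes at an unadjusted p under 0.05, against 6.95%. Only GPX1 of the 9, against 9.49% of all genes, did not overlap, with a difference of 0.38 (-0.04 to 0.81; adjusted p = 0.747), and MGST1 differed by -0.07 (-0.58 to 0.44; adjusted p = 0.979). With ENSG00000226958 removed, GPX1 overlapped between these groups as well.

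The main effects set 6 samples against 6. The Nrf2 siRNA main effect gave 0 limma calls among the 9 genes, against 0.731% of all genes, and 2 (GSR and MGST1) at an unadjusted p under 0.05, against 11.5%. The samples with and without Nrf2 siRNA overlapped for all 9 genes, and 1.21% of all genes had no overlap. The median over the 9 genes was -0.19 against 0.00 over all genes. The Pink1 siRNA main effect gave 0 calls, against 0.652%, and 2 (GPX1 and GSTP1) at an unadjusted p under 0.05, against 13.6%, with a median of 0.10 against 0.01. The interaction, which asks whether the effect of both siRNAs differs from the sum of the single ones on the log2 scale, gave 0 calls, against 0% of all genes, and 0 at an unadjusted p under 0.05, against 5.45%. For MGST1 it was 0.36 (95% interval -0.36 to 1.08; adjusted p = 0.919), so that neither additivity nor a departure from it of up to 2-fold was resolved. Of the 72 intervals for 9 genes in 8 comparisons, 59 lay within a 2-fold change either way.

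**Figure D3:**
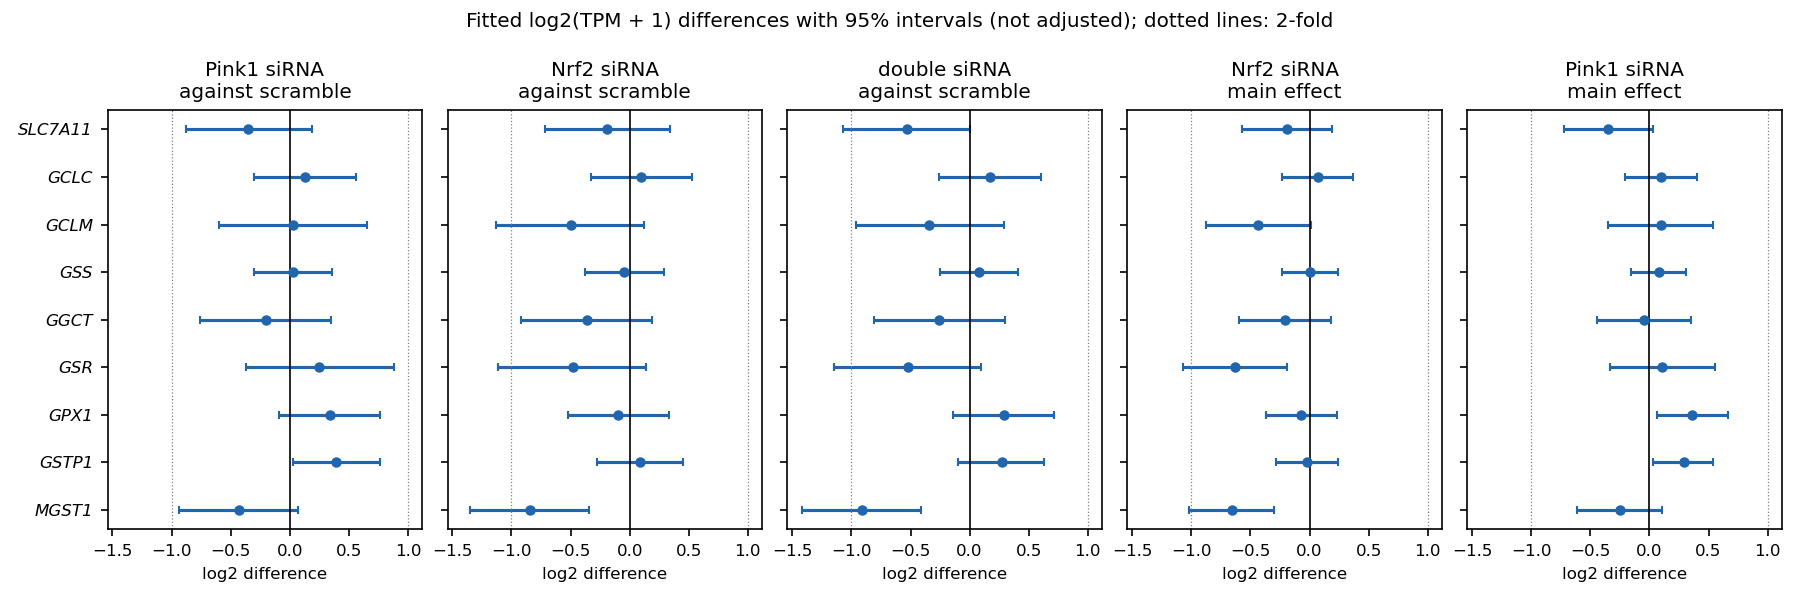
Fitted difference (x axis, log2(TPM + 1) scale) with its 95% interval for each of the 9 glutathione genes (y axis) in 5 of the 8 comparisons; dotted lines mark a 2-fold change. The intervals of MGST1 exclude 0 in Nrf2 siRNA against scramble (-1.35 to -0.34), in double siRNA against scramble (-1.42 to -0.41) and in the Nrf2 siRNA main effect (-1.02 to -0.30), before adjustment over all genes.

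Samples that stood apart in other respects were also extreme for some of these genes, though some sample must be lowest for each gene. Nrf2 siRNA replicate 2, with the highest interferon-stimulated sum (5507 TPM), held the lowest GCLM and GGCT of the 12 samples and the lowest MGST1, GSR and GSTP1 of its group. In the other direction, the same sample held the highest SLC7A11 (11.4 TPM) and GSS (30.1 TPM) of its group, and its GPX1 was in the middle. Its share of ENSG00000226958 was also high, at 38.6%. With that identifier removed, its GCLM (6.99 TPM) and GGCT (24.0 TPM) stayed the lowest of the 12 samples. Its GSTP1 (1357 TPM) was then above that of replicate 3 (1329 TPM), and its GPX1 (310.4 TPM) was the highest of its group. Double siRNA replicate 1, with the highest share of ENSG00000226958 (41.4%), held the lowest MGST1, SLC7A11 and GCLC. With that identifier removed it still held the lowest MGST1 (126 TPM), while GCLC was lowest in scramble replicate 1 (17.5 TPM) and SLC7A11 in Pink1 siRNA replicate 3 (8.17 TPM). With each sample left out in turn, 0 of the 9 genes were called in each of the 8 comparisons, and with ENSG00000226958 removed MGST1 was called in 3 as given above. The part of the interferon-stimulated genes in the results was not tested. Of 5 blood markers 2 were in the table, CD68, a lysosomal protein not limited to macrophages, and PTPRC, at most 0.445 TPM. Their sum was 25.3 to 30.9 TPM with Pink1 siRNA, 42.3 to 105 TPM with Nrf2 siRNA, 34.1 to 52.5 TPM with double siRNA and 19.2 to 37.9 TPM with scramble, and its part in the results was not tested.

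Beyond the 9 genes, a list of 61 other glutathione genes was examined in the same fit; 48 were in the table and 42 were tested. Of these 42, 0 were called in any of the 8 comparisons by limma under the processing used. In Pink1, Nrf2 and double siRNA against scramble, 0.471%, 0.333% and 0.753% of all genes were called. In those comparisons 6, 4 and 9 of the 42 had an unadjusted p under 0.05, against 12.2%, 12.2% and 14.2% of all genes. Groups did not overlap for 16, 13 and 10 of the 42 (38.1%, 31% and 23.8%), against 25%, 22.9% and 18% of all genes, a difference that was not tested. The median differences were -0.05, -0.10 and -0.07, against 0.02, 0.02 and 0.01 over all genes. In the Nrf2 and Pink1 siRNA main effects 1 and 10 of the 42 had an unadjusted limma p under 0.05, against 11.5% and 13.6% of all genes. In double siRNA against Pink1 siRNA, against Nrf2 siRNA and in the interaction these were 3, 3 and 3, against 5.8%, 6.95% and 5.45%. GLRX2, a mitochondrial glutaredoxin, and ESD, an S-formylglutathione hydrolase, both picked out after their values were seen, differed by -0.78 and -0.69 in Nrf2 siRNA against scramble (limma adjusted p = 0.199 and 0.232). The 2 most abundant genes of each role are described next.

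SLC3A2, the heavy chain that carries SLC7A11 to the membrane, averaged 241 ± 26.5 TPM with Pink1 siRNA, 206 ± 23.3 with Nrf2 siRNA, 227 ± 53.5 with double siRNA and 205 ± 14.3 with scramble (SD, n = 3 each). Its difference from scramble was 0.00 with Nrf2 siRNA. LAP3, a leucine aminopeptidase that can split the cysteinylglycine left by glutathione breakdown, averaged 41.3 ± 1.94, 80.0 ± 25.2, 53.8 ± 21.8 and 54.3 ± 8.68 TPM in the Pink1 siRNA, Nrf2 siRNA, double siRNA and scramble groups. Its highest sample was Nrf2 siRNA replicate 2 at 108 TPM, which was also the sample with the highest interferon-stimulated sum. CBS, which starts the route from homocysteine to cysteine and was picked out after its values were seen, had 27.0, 34.5 and 36.5 TPM with Pink1 siRNA, 25.3, 26.3 and 26.9 TPM with Nrf2 siRNA, 25.4, 28.3 and 29.9 TPM with double siRNA, and 17.2, 21.7 and 18.2 TPM with scramble. All 9 siRNA samples of CBS were above all 3 scramble samples, the opposite order to that of MGST1, and its Pink1 siRNA difference of 0.74 ± 0.15 (SE) was just outside the call (limma adjusted p = 0.0501). The share of all genes with such an order was not computed.

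Among the peroxidases, GPX4, which reduces phospholipid hydroperoxides, averaged 295 ± 41.9 TPM with Pink1 siRNA, 207 ± 23.5 with Nrf2 siRNA, 268 ± 50.6 with double siRNA and 243 ± 59.1 with scramble (SD, n = 3 each). GPX3, the secreted form, had 105, 125 and 167 TPM with Pink1 siRNA, 84.4, 80.7 and 60.8 TPM with Nrf2 siRNA, 102, 91.4 and 119 TPM with double siRNA, and 85.8, 51.6 and 59.4 TPM with scramble. Its 6 samples with Pink1 siRNA were all above its 6 samples without it. The same held for PTGES and ETHE1, both picked out after their values were seen. In that comparison, the Pink1 siRNA main effect, 3 of the 42 genes therefore had no overlap, against 1.25% of all genes, where either direction counts. The Pink1 siRNA main effect on GPX3 was 0.74 ± 0.16 (SE; limma adjusted p = 0.0546), and that of Pink1 siRNA against scramble was 1.01 ± 0.22 (adjusted p = 0.0730), so neither passed under the processing used. Other settings called some of the 42 genes in both comparisons, with the counts at the end. Which genes these were is not given here.

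The other roles were led by genes that were not called either. The transferase GSTO1 averaged 121 ± 1.41 TPM with Pink1 siRNA, 126 ± 2.58 with Nrf2 siRNA, 122 ± 42.4 with double siRNA and 134 ± 17.0 with scramble, and MGST3, a relative of MGST1, averaged 102 ± 13.9, 102 ± 18.6, 119 ± 33.1 and 120.0 ± 5.42 TPM in the same order (SD, n = 3 each). MGST3 differed from scramble by -0.24 with Nrf2 siRNA (limma adjusted p = 0.694) and by -0.04 with double siRNA (adjusted p = 0.953), beside -0.84 and -0.91 for MGST1. PRDX6, a peroxiredoxin that takes its electrons from glutathione, averaged 258 ± 25.9, 279.6 ± 23.7, 299 ± 94.7 and 323 ± 15.5 TPM, and GLO1, the glyoxalase that detoxifies methylglyoxal, averaged 90.4 ± 19.9, 88.6 ± 21.2, 91.6 ± 31.9 and 104 ± 9.37 TPM in the same order. SLC25A39, the mitochondrial glutathione importer, had all 9 siRNA samples (108 to 151 TPM) above all 3 scramble samples (87.9 to 106 TPM), with differences of 0.43 for Pink1 siRNA, 0.34 for Nrf2 siRNA and 0.42 for double siRNA (adjusted p = 0.271, 0.416 and 0.253). Here too the share of all genes with such an order was not computed. ABCC1, which exports glutathione conjugates, had 41.3, 42.0 and 63.9 TPM with Pink1 siRNA, 38.0, 42.9 and 49.4 TPM with Nrf2 siRNA, 44.6, 48.1 and 25.0 TPM with double siRNA, and 32.5, 32.7 and 32.4 TPM with scramble. Its Pink1 siRNA and Nrf2 siRNA samples were all above scramble, with differences of 0.55 and 0.40 that did not pass (limma adjusted p = 0.358 and 0.545). The transferases GSTM1, GSTM2 and GSTM4, and GSTT2 and GSTT2B, have near-identical copies whose reads an estimate can divide in different ways, so their values are uncertain. Their single values are shown in the plot of all genes only, but they enter the counts and medians of the 42 genes. GSTT2 was among those with an unadjusted limma p under 0.05 in double siRNA against scramble. GSTT2 and GSTT2B were among those without overlap there, as was GSTT2B in Pink1 siRNA against scramble. GSTT2 or GSTT2B also counted at that p in double siRNA against each single siRNA and in the interaction.

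**Figure D4:**
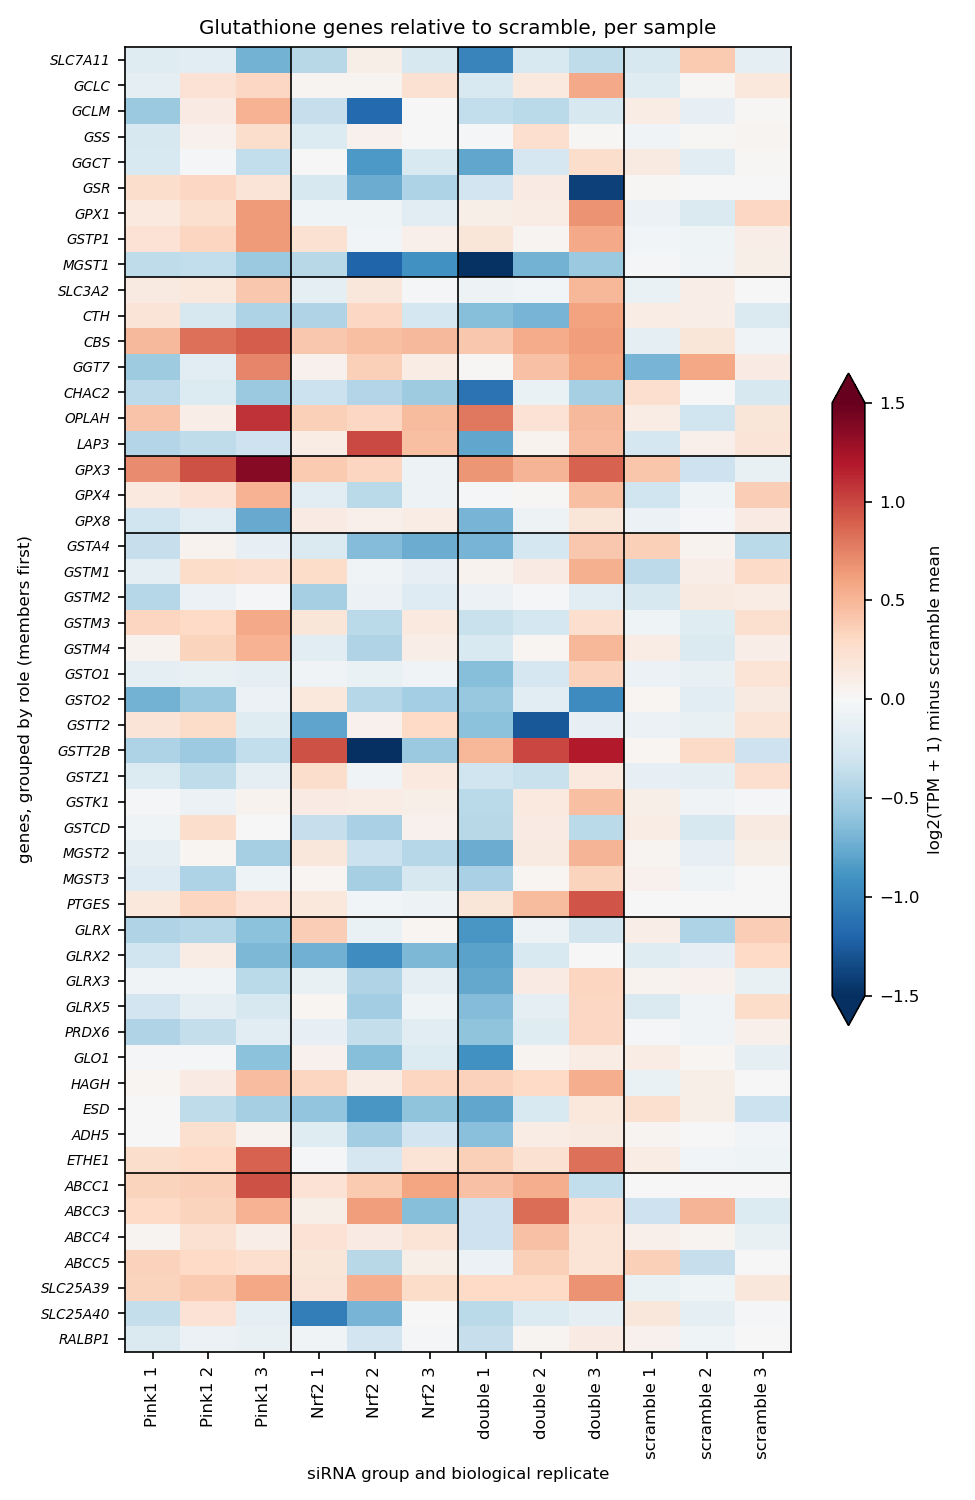
Log2(TPM + 1) minus the scramble mean (colour; values past 1.5 either way take the end colours) of the 9 glutathione genes, at the top, and the 42 other genes tested (rows, split by role) in each of the 12 samples (columns). MGST1 is blue in all 9 siRNA samples, CBS is red in all 9, and double siRNA replicates 1 and 3 differ from each other across many genes of the transferase and glutaredoxin blocks.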

How the data were processed

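RNA from ARPE-19 cells was sequenced as stranded, paired-end mRNA libraries, per the labels' protocols. The authors deposited 1 table of TPM values with 24 columns, each summing to 999678 to 999945. The submitters' processing notes name STAR, RSEM, edgeR, GRCh37 and hg19; no versions or roles are given there. TPM keeps no read depth, so the depth is unknown and no counting interval was computed. Of 24053 identifiers, 19325 received a symbol from a name table. Here technical pairs were averaged on the TPM scale, a gene was kept when its mean reached 1 TPM, and log2(TPM + 1) was fitted in limma 3.58.1 (R 4.3.3; linear model on 4 groups, empirical Bayes with an intensity trend). The p-values are two-sided, with Benjamini-Hochberg adjustment over 13810 genes and calls at an adjusted p under 0.05. Fold changes are on the log2(TPM + 1) scale, which understates changes of low genes. Intervals are 95% and not adjusted. The fit was tested on simulated data.

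The 8 comparisons set each siRNA group against scramble and double siRNA against each single siRNA, and added both main effects and the interaction. The members and lists were chosen with earlier results of these data known. All 9 members are named. Of the wider list, the rule was to name any gene called and otherwise the 2 of each role with the highest mean TPM. CBS, GLRX2, ESD, PTGES and ETHE1 were described outside this rule, after their values were seen. The labels call the samples biological replicates without saying what was separate between them, so p-values measure the spread between these samples. Alternatives changed the pseudocount, the minimum TPM, the scaling, the samples fitted, the technical replicate and the replicate block, and left out each sample. Promoter windows come from RefSeq (GRCh38.p14), and no other coordinates are printed because the files' build differs.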

Additional observations from a re-analysis of the deposited data

How the results depend on the processing

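Of 1359 recomputed differences of the 9 glutathione genes, 1350 stayed on the same side of the limma threshold. The other 9 were all MGST1, which raised the count of called genes to 1 of 9 in Nrf2 siRNA against scramble, double siRNA against scramble and the Nrf2 siRNA main effect: under quantile normalization (adjusted p = 0.0344, 0.0166 and 0.0158), with ENSG00000226958 removed (0.0384, 0.0113 and 0.0142) and under median-of-ratios rescaling (0.0475, 0.0232 and 0.0239). Over all alternatives MGST1 had an adjusted p of 0.0344 to 0.458, 0.0113 to 0.318 and 0.0142 to 0.249 in these comparisons. Leaving out 1 sample gave differences of -1.05 to -0.67, -1.09 to -0.63 and -0.77 to -0.52, and counts of 0 called. The sign changed 89 times, in 35 of 72 results, none of them called and the largest at 0.29 in size. In the wider list, the count of 0 became 1 in Pink1 siRNA against scramble (pseudocount 5) or 2 (minimum of 5 TPM, all 3 scalings), 2 in double siRNA against scramble (quantile normalization and median-of-ratios rescaling), and 1 (pseudocount 0.1, minimum of 5 TPM, ENSG00000226958 removed), 3 (median-of-ratios rescaling) or 4 (quantile normalization) in the Pink1 siRNA main effect. Leaving out 1 sample gave 0 to 1 in each. The genes behind these counts of the wider list are not named here. Over all genes, leaving out 1 sample moved the calls from 65, 46 and 104 to 18 to 41, 6 to 22 and 16 to 229 in Pink1, Nrf2 and double siRNA against scramble, from 101 to 37 to 232 and from 90 to 16 to 170 in the Nrf2 and Pink1 main effects, and other settings gave 34 to 215, 8 to 167, 6 to 335, 56 to 288 and 17 to 352 in that order. In the interaction and in double siRNA set against Pink1 or Nrf2 siRNA there were 0, 6 and 2 calls, and 0 to 3, 0 to 26 and 0 to 4 over all alternatives. The causes were not tested.

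Replicate numbers gave no clear pairing of the samples. Over 18 same-numbered pairs the correlation of deviations was -0.112 to 0.204 (median 0.008, against 0.01 for pairs of other numbers). Yet 7 of 12 samples correlated best with a sample of their own number, and pairing was not tested. With the replicate block MGST1 had -0.84 (adjusted p = 0.191), -0.91 (0.140) and -0.66 (0.133), and 0 of the 9 genes were called in each comparison. With 3 samples a group and unknown depth, differences within the intervals given were not resolved.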
